A study of Homo sapiens with 8 samples.

Results

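The 10 intestinal mucin genes *MUC2*, *MUC5AC*, *MUC5B*, *MUC1*, *MUC3A*, *MUC4*, *MUC12*, *MUC13*, *MUC17* and *MUC20* were followed in 2 colorectal cancer cell lines treated with Z325. Members were taken by gene name, and *MUC2* was among the reasons for the choice because it had been seen to be lower in treated NCI-H716 cells, so in the NCI-H716 contrast the mucins are given with values, fold changes and standard errors as a description, without p-values. All 10 mucins were listed among the 63241 genes of the NCI-H716 tables. Of the 28043 genes used from the HCT116 table, which covers chromosomes 1 to 8 and a part of chromosome 9, 7 were mucins. *MUC2*, *MUC5AC* and *MUC5B* lie on chromosome 11 and were not analysed here in HCT116.

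Z325 is ZINC000101867325, a small molecule selected by docking as a candidate inhibitor of the fibroblast growth factor receptors, and the RNA-seq compared cells labelled Control with cells labelled Test, which the design text and the study's methods identify as Z325. The labels give neither a dose nor a time for these libraries, and they do not name what the control cells received. HCT116 is an adherent colon carcinoma line, and NCI-H716 is a line from a poorly differentiated colorectal carcinoma that is known for enteroendocrine features and for amplification of *FGFR2*. Each line had 2 control and 2 Z325 libraries, made by full-length cDNA amplification from about 100 cells per reaction. The study calls the replicates biological duplicates, and the labels number them without saying what was kept separate, so every p-value measures the spread between these libraries.

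Mucins are large glycoproteins whose tandem repeats, rich in proline, threonine and serine, carry dense O-linked glycans. The gel-forming mucins are secreted as disulfide-linked polymers, and *MUC2* encodes the main structural component of the colonic mucus layer, released by goblet cells. *MUC5AC* and *MUC5B* encode the principal gel-forming mucins of the gastric surface and the airways, and *MUC5AC* is often expressed in colorectal tumours although the healthy colon has little of it. The membrane-bound mucins, among them *MUC1*, *MUC3A*, *MUC4*, *MUC12*, *MUC13*, *MUC17* and *MUC20*, form the glycocalyx of the apical cell surface, and several of them carry signalling domains in their cytoplasmic tails.

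In GRCh38 the gel-forming genes lie side by side on the forward strand of chromosome 11, *MUC2* at chr11:1074875-1110511, *MUC5AC* at chr11:1157953-1201138 and *MUC5B* at chr11:1223066-1262172. With the gastric mucin gene *MUC6* they form a cluster of 249350 bases, flanked by *AP2A2* and *TOLLIP*. *MUC3A* (chr7:100949534-100968347), *MUC12* (chr7:100969565-101018939) and *MUC17* (chr7:101020072-101058859) are neighbours on chromosome 7. *MUC20* (chr3:195720884-195741123) and *MUC4* (chr3:195746765-195811973) are neighbours on chromosome 3, *MUC13* is elsewhere on the same chromosome (chr3:124905442-124953819), and *MUC1* is on chromosome 1 (chr1:155185824-155192916). GENCODE v44 lists no other gene that shares exon bases with *MUC2*, *MUC5AC*, *MUC4* or *MUC13*. *MUC20* shares 27.1% of its merged exon bases with the non-coding gene *MUC20-OT1* on the same strand. The other 5 mucins share between 1.45% and 6.49% with *MUC5B-AS1*, *MUC12-AS1*, *RN7SKP54*, ENSG00000273088 or ENSG00000274993. Because reads from near-identical repeats cannot always be placed, counts of *MUC3A*, *MUC12*, *MUC17* and the gel-forming genes are uncertain to that extent.

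The 250 bases before the RefSeq start of 2 mucins are shown, *MUC2* because it had the lowest fitted fold change of the mucins that passed the filter on low counts in NCI-H716 and *MUC13* because it was the most abundant and differed in the other direction. RefSeq (GRCh38.p14) start windows were matched for 7 of the 10 genes, and *MUC5AC*, *MUC5B* and *MUC20* had none. The first window is chr11:1074624-1074873 on the forward strand, the second is chr3:124934752-124935001 on the reverse strand, both are written 5′ to 3′, and capitals mark matches to the motifs searched.
MUC2: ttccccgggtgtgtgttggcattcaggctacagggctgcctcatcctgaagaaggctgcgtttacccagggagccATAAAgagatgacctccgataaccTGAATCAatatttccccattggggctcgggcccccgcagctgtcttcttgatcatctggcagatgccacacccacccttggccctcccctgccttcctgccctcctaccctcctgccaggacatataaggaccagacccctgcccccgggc
MUC13: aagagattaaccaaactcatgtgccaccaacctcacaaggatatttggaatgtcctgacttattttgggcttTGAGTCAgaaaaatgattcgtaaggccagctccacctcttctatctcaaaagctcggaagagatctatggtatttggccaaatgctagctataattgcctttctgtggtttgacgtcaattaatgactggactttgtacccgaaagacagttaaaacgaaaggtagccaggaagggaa
The capitals in *MUC2* are ATAAA, which is the CDX core TTTAT read on the other strand, which begins 175 bases before the start, and an AP-1 match to TGANTCA that begins 151 bases before it. *MUC13* holds an AP-1 match that begins 178 bases before its start. On both strands, a CDX core occurs in 32.7% and an AP-1 match in 6.57% of 35116 RefSeq windows of the same length. The GATA core AGATAA, the GC box GGGCGG, the FOXA core TGTTTAC, the STAT palindrome TTCNNNGAA, the antioxidant response element TGACNNNGC, the TATA box TATAAA, and the NF-kB and HNF1 motifs had no match in either window. The TATA box contains the ATAAA of the CDX core, so these overlap by construction. A match describes letters only, and no binding was measured.

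In control NCI-H716 cells the mucin with the highest level per length was *MUC13*, at 32.9 ± 3.63 TPM (mean ± SD, n = 2 libraries, as for all values with an SD here). TPM values are corrected for gene length and library total, so that genes can be compared. *MUC2* followed at 12.2 ± 0.721 TPM, *MUC5AC* at 6.69 ± 1.68 TPM, *MUC1* at 2.0 ± 0.035 TPM and *MUC12* at 1.08 ± 0.615 TPM, while *MUC5B* stood at 0.15 TPM. *MUC20*, *MUC17* and *MUC3A* had mean control levels between 0.020 and 0.135 TPM, and *MUC4* was at 0 in both controls. From *MUC13* down to *MUC5B*, the 2 control TPM values of neighbours in this order did not overlap. *MUC20*, at 0.27 and 0 TPM, overlapped with *MUC5B*, at 0.12 and 0.18 TPM, and did not differ from it beyond the spread. Among the 25328 genes with a control TPM above 0, *MUC13* ranked at 2607, *MUC2* at 4750 and *MUC5AC* at 6443.

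The order of *MUC2* and *MUC5AC*, and that of *MUC12* and *MUC5B*, depended on the gene length. RSEM gave *MUC2* a length of 3138 to 3166 bases, close to its shortest transcript model of 3111 bases, which lies at the 3′ end of the gene (chr11:1099770-1110508), although its exons merged cover 12667 bases. *MUC5AC* has 1 transcript model of 17448 bases. Counted over merged exons, *MUC2* had a mean control FPKM, which like TPM is corrected for length and library total, of 3.68 against 8.71 for *MUC5AC*, so on that scale the order was turned. *MUC13* remained first at 32.8. *MUC12* and *MUC5B* were turned as well, with mean control values of 0.080 and 0.192 on that scale. RSEM gave *MUC12* lengths of 985 and 1744 bases in the controls, although its exons merged cover 17178 bases. *MUC12* had 20 and 13 counts in the controls, against 38 and 44 for *MUC5B*.

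In Z325-treated NCI-H716 cells the 3 gel-forming mucins were lower than in both controls, *MUC2* by a factor of 3.14, *MUC5AC* by 2.15 and *MUC5B* by 2.70 in the fitted counts. *MUC13* was 1.33 times the control level. The remaining mucins either overlapped between the groups or had few counts. Levels between libraries are given below as CPM, counts scaled to a common library total with TMM, which corrects for library total and composition but not for gene length. In these bulk libraries, fewer cells that express a gene and less RNA per cell cannot be told apart.

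*MUC2* was counted 647 and 460 times in the controls and 251 and 216 times after Z325. Its CPM was 49.0 in control 1, 44.6 in control 2, 19.2 in Z325 1 and 10.9 in Z325 2. Both treated libraries were below both controls, and Z325 2 was the lowest. The group means were 46.8 ± 3.10 and 15 ± 5.9 CPM, and the fitted log2 fold change was -1.65 (SE 0.27).

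*MUC5AC* had CPM values of 180 and 126 in the controls and 83.8 and 58.5 in the Z325 libraries, from 2375, 1296, 1098 and 1163 counts. The groups did not overlap, but the 2 controls differed by more than control 2 differed from Z325 1. The log2 fold change was -1.11 (SE 0.23). *MUC5B* was counted only 38 and 44 times in the controls and 27 and 13 times after Z325, or 2.88, 4.27, 2.06 and 0.653 CPM. Its groups did not overlap either, and its log2 fold change was -1.43 (SE 0.60). Without Z325 replicate 1 it was -2.42 and without Z325 replicate 2 it was -0.77, and on the log2(TPM + 1) scale, which shrinks low values, it was -0.12.

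*MUC13*, a membrane-bound mucin of the gut whose extracellular part carries epidermal growth factor-like domains, went the other way. Its CPM was 106 in control 1, 123 in control 2, 152 in Z325 1 and 154 in Z325 2, from 1404, 1272, 1992 and 3070 counts. The Z325 libraries lay within a few CPM of each other and above both controls, at a mean of 153 ± 1.55 against 115 ± 12 CPM. The log2 fold change was 0.42 (SE 0.16).

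*MUC1*, the membrane mucin of most glandular epithelia, gave 1.21 and 1.07 CPM in the controls and 0.916 and 1.76 CPM after Z325, so the groups overlapped. Its log2 fold change was 0.25 with an SE of 0.63. *MUC12* gave 1.51 and 1.26 CPM in the controls, 2.67 in Z325 1 and 0.452 in Z325 2, and its log2 fold change was 0.12 with an SE of 0.79. In TPM, both Z325 values of *MUC12* (0.58 and 0.02) were below both controls, and the length that RSEM assigned to it ran from 985 bases in control 1 to 16366 bases in Z325 2, so its direction differed between the scales.

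The last 4 mucins did not pass the filter on low counts in NCI-H716. *MUC3A* had 4, 1, 22 and 5 counts in control 1, control 2, Z325 1 and Z325 2. *MUC4* had 6 counts in Z325 1 and none in the other libraries, *MUC17* had 5, 5, 9 and 0, and *MUC20* had 3 counts in control 1 only. A count of 0 allows up to 3 counts, which is 0.152 to 0.294 CPM (unscaled) in these libraries, for counting error only.

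**Figure D1:**
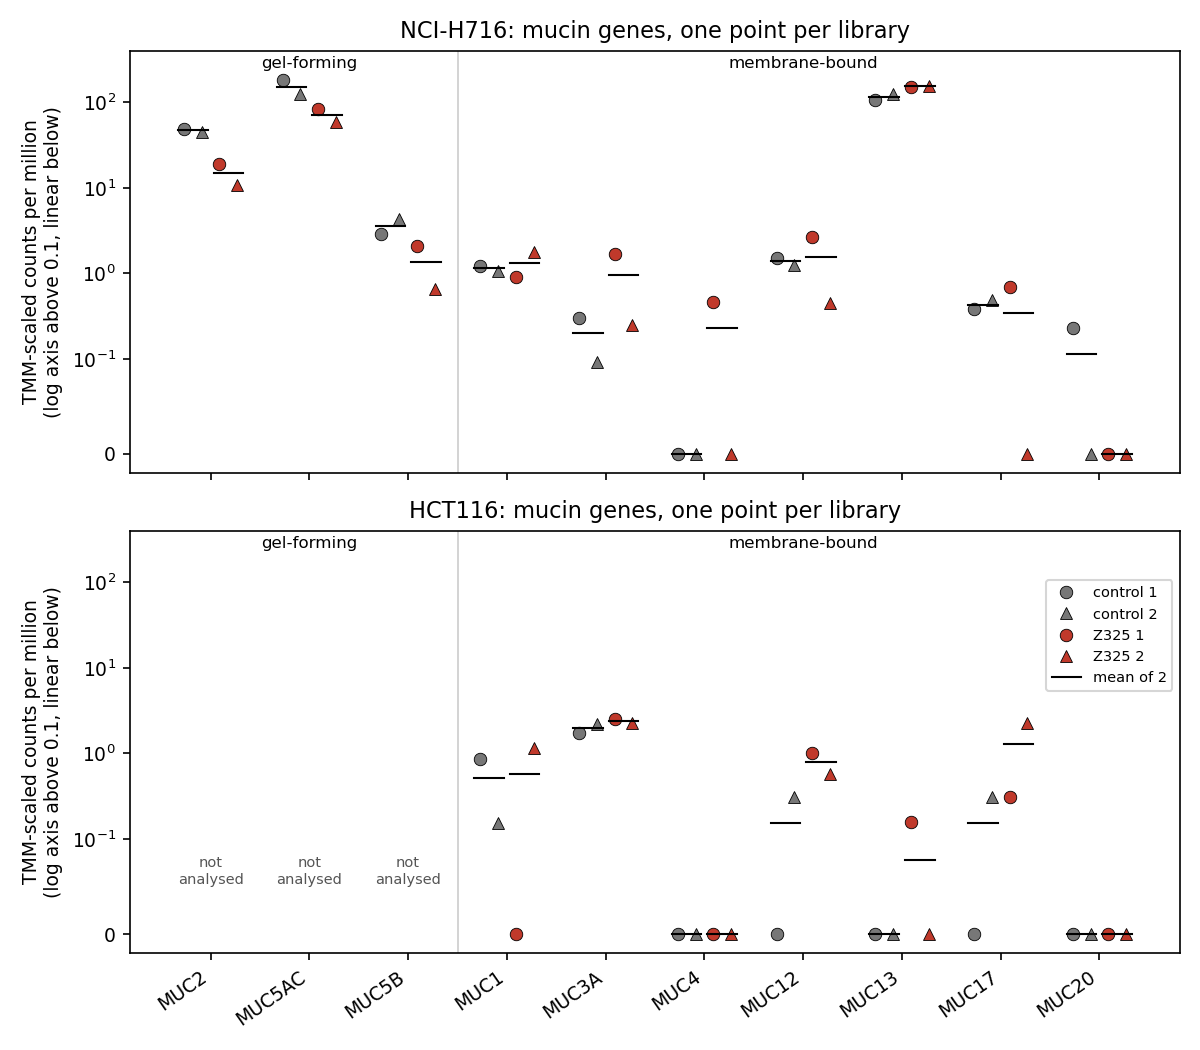
TMM-scaled CPM of the 10 mucin genes on a log axis that becomes linear below 0.1, with 1 point per library (circles replicate 1, triangles replicate 2, grey control, red Z325) and a bar at the mean of 2. In NCI-H716 the red points of MUC2, MUC5AC and MUC5B lie below the grey ones and those of MUC13 above. In HCT116, where MUC2, MUC5AC and MUC5B were not analysed, the highest value of the 7 other mucins is 2.5 CPM.

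At an adjusted p under 0.05 in edgeR's quasi-likelihood test, 1 of the 6 mucins that passed the filter, *MUC2*, was called in NCI-H716, where 0.502% of the 14142 genes tested were called in either direction (0.099% lower and 0.403% higher) and 16.9% had an unadjusted p under 0.05. Since this contrast was known when the genes were chosen, and *MUC2* was among the reasons, its call is no independent test. Nothing is read from the call or from that count. *MUC2* was not called in 4 of the 13 alternatives. These were limma on log2(FPKM + 1), log2(FPKM + 0.1) and log2(TPM + 1), and the fit without control replicate 1, where its log2 fold change was -1.57. Both treated libraries were below both controls for 3 of the 6 mucins and above them for 1, beside 25.1% and 24.3% of all genes tested (49.4% together). The median log2 fold change was -1.43 over the 3 gel-forming mucins and 0.25 over the 3 membrane-bound mucins that passed, and -0.0063 over all genes tested.

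**Figure D2:**
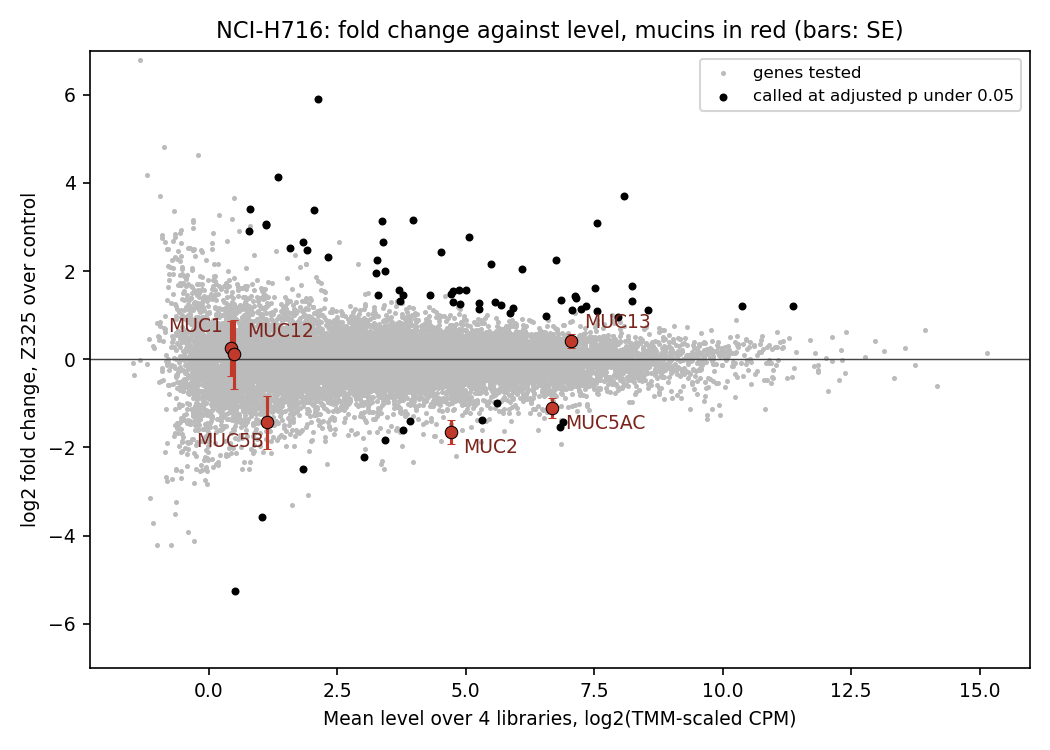
Fitted log2 fold change (Z325 over control) against mean level as log2 of TMM-scaled CPM for the 14142 genes tested in NCI-H716 (grey), those called at an adjusted p under 0.05 (black) and the 6 mucins that passed the filter (red, with SE bars). MUC2 at -1.65 and MUC5AC at -1.11 lie at the lower edge of the grey cloud, while MUC5B at -1.43, MUC1, MUC12 and MUC13 at 0.42 lie inside it.

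The make-up of the summed mucin level of NCI-H716 differed between the groups, while the sum itself depended on the scale. The 10 mucins together had 54.8 and 55.4 TPM in the controls and 53.2 and 50.8 TPM after Z325. Without a length correction they summed to 342 and 301 CPM and to 264 and 227 CPM, which is lower after Z325, and as FPKM over merged exons to 44.7 and 47.2 and to 50.1 and 49.5, which is higher. *MUC13* made up 55.3% and 63.9% of the TPM sum in the controls and 79.7% and 84.2% after Z325. The gel-forming mucins made up 37.7% and 31.3% of the TPM sum in the controls and 15.9% and 10.1% after Z325. With lengths from merged exons, the gel-forming share was 31.6% and 23.4% in the controls and 12.7% and 8.64% after Z325. For each *MUC2* count there were 2.17 and 2.77 *MUC13* counts in the controls and 7.94 and 14.2 in the Z325 libraries. The number of *MUC5AC* counts per *MUC2* count was 3.67, 2.82, 4.37 and 5.38 in the same order, so the Z325 libraries were above both controls for this ratio as well. These shares rest on the same 4 libraries and the same contrast as the choice of genes, and they are a description.

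**Figure D3:**
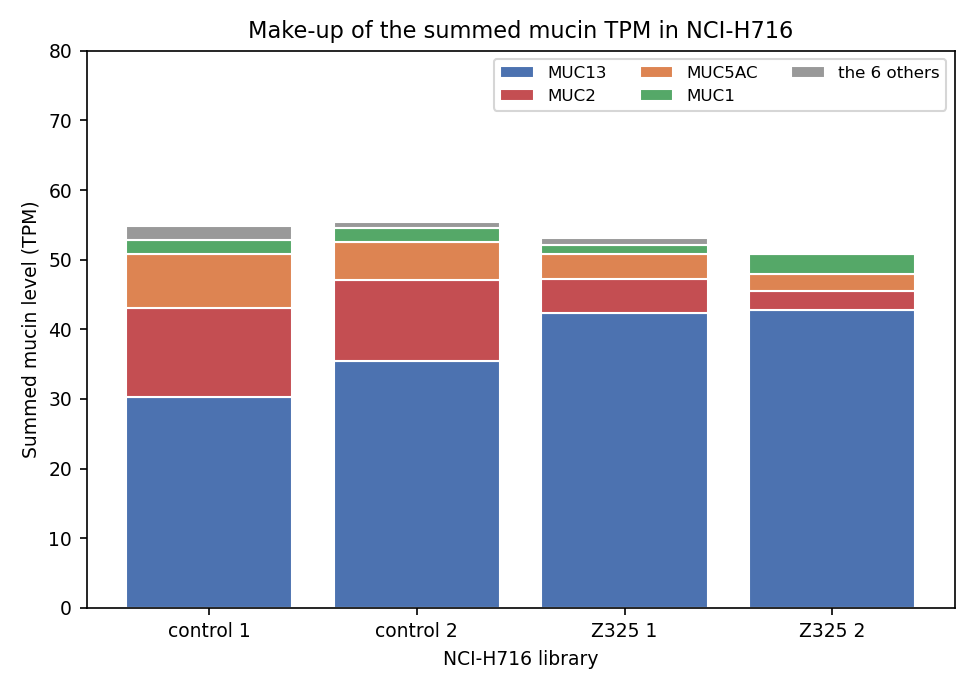
Stacked TPM of the mucins in each NCI-H716 library, with MUC13, MUC2, MUC5AC, MUC1 and the sum of the 6 other mucins as separate colours. The bars reach 54.8, 55.4, 53.2 and 50.8 TPM, and the MUC13 part grows from 30.3 and 35.4 TPM in the controls to 42.4 and 42.8 TPM after Z325.

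Of the 2 nearest protein-coding genes on each side of the chromosome 11 cluster, edgeR and DESeq2 called 0 in NCI-H716. An unadjusted p under 0.05 in edgeR was found for 1, beside 16.9% of all genes tested. That gene, *CHID1*, which encodes a chitinase-like protein, had 20.2 and 12.1 CPM in the controls and 8.93 and 11.1 CPM after Z325, both below both controls, while its TPM values overlapped, and a log2 fold change of -0.69 (SE 0.29, edgeR adjusted p = 0.273). *BRSK2*, a kinase gene, had a log2 fold change of 0.0065 (SE 0.40, edgeR adjusted p = 0.995). *AP2A2*, an adaptor subunit of clathrin-mediated endocytosis, had a log2 fold change of -0.0035 (SE 0.30, edgeR adjusted p = 0.997), and *TOLLIP*, a regulator of Toll-like receptor signalling, had -0.17 (SE 0.29, edgeR adjusted p = 0.813). *MUC6* had 0.01 TPM in Z325 1 and was at 0 in the other libraries. *MUC20-OT1*, which shares exon bases with *MUC20*, had CPM values of 8.18, 7.18, 7.25 and 7.44. *MUC5B-AS1* was at 0 in all 4 libraries, as were *RN7SKP54* and ENSG00000273088. *MUC12-AS1*, antisense to *MUC12*, had 9, 7, 5 and 10 counts, and ENSG00000274993, antisense to *MUC3A*, had 0, 2, 2 and 1.

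Over the 4 NCI-H716 libraries, the genes whose centred log2 CPM was most like that of *MUC13* among 7831 genes with at least 10 CPM were *ASXL2*, *DPH3* and *CANX*, with root mean square differences of 0.011, 0.017 and 0.018. *CANX* encodes calnexin, a chaperone of glycoprotein folding in the endoplasmic reticulum, and stood at 343, 407, 491 and 492 CPM. For *MUC2*, ranked in the same way after its values had been seen, the nearest were ENSG00000259316, *ARHGAP1* and *MTCO2P12*, at 0.13, 0.17 and 0.17. Of these, *MTCO2P12* is a pseudogene of a mitochondrial gene and may share reads with it. A likeness over 4 points in 2 groups is a description only.

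In HCT116 the 7 mucins that could be analysed, all membrane-bound, were close to absent, and no difference was detectable at these counts. Only *MUC1* and *MUC3A* passed the filter. *MUC3A*, a membrane mucin of the intestinal brush border, had 24, 29, 32 and 8 counts, or 1.74 and 2.22 CPM in the controls and 2.5 and 2.29 CPM after Z325. Both Z325 libraries were above both controls by less than the SE of the fit, and the log2 fold change was 0.28 (SE 0.64, edgeR adjusted p = 0.845). *MUC1* had 12, 2, 0 and 4 counts, the groups overlapped, and the log2 fold change was -0.39 (SE 1.75, edgeR adjusted p = 0.927).

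Of these 2 mucins, 0 were called by edgeR and 0 reached an unadjusted p under 0.05, beside 5.78% of 6491 genes called (2.83% higher and 2.94% lower). An unadjusted p under 0.05 was found for 23.9% of them. DESeq2, which tested 5 mucins, also called 0. Of the 2 that passed the filter, *MUC3A* had both treated libraries above both controls, as did 24.8% of the genes tested, while 29% had both below and 53.8% did not overlap in either direction. The median log2 fold change of the pair was -0.051, and that of all genes tested was -0.027. *MUC12* (0, 4, 13 and 2 counts) and *MUC17* (0, 4, 4 and 8 counts) did not pass the filter, although in CPM both had both treated libraries above both controls, and *MUC13* had 2 counts in Z325 1 only. *MUC4* and *MUC20* were at 0 in all 4 libraries, which allows up to 0.224 to 0.873 CPM (unscaled). Of the genes with shared exon bases, *MUC5B-AS1* was not analysed here in HCT116, ENSG00000274993 had 6 counts in control 2 only, and *MUC12-AS1*, *RN7SKP54*, *MUC20-OT1* and ENSG00000273088 were at 0 in all 4 libraries.

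By TPM, *MUC1* ranked first in HCT116 at 0.636 ± 0.640 in the controls, with *MUC3A* next at 0.510 ± 0.0729, and the 2 did not differ beyond their spread. The 7 mucins summed to 0.857 to 2.5 TPM per library. *MUC13*, first in NCI-H716, stood at 0.12 TPM in 1 HCT116 library and at 0 in the others. The lines were counted with different tools, and no test was made between them. Ranked by likeness to *MUC1*, *CDK7*, *CASP8AP2* and *CPS1* came first with root mean square differences of 0.29, 0.41 and 0.51, and the pattern of *MUC1* behind that ranking rests on at most 12 counts a library.

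The libraries held 3434620 to 13396225 counts in HCT116, where Z325 2 was the shallowest, and 10210239 to 19738840 in NCI-H716. Among HCT116 counts of 1 to 49, 64.6% to 84.1% were even, against 41.6% to 42.7% in NCI-H716, and the sources used here do not say whether the 2 reads of a pair were counted once or separately in HCT116. NCI-H716 expressed the epithelial keratin *KRT8* at 143 to 192 TPM and *GCG*, the glucagon precursor of enteroendocrine L cells, at 1437 to 2366 TPM, while the epithelial markers *CDH1* and *KRT20* stayed at or below 0.21 TPM and *CDX1* was at 0. HCT116 expressed *EPCAM* at 1765 to 1961 TPM, and *VIL1*, a brush border protein, stayed at or below 0.182 TPM. The summed TPM of 12 epithelial markers in NCI-H716 was 464 to 478 in the controls and 391 to 400 after Z325, and that of 12 neuroendocrine markers was 2232 to 2656 and 1872 to 2017. The 7 fibroblast markers summed to 239 to 262 and 195 to 224 TPM, almost entirely from *LUM* and *COL3A1*, with *COL1A1* and *DCN* at or below 0.30 TPM. The 8 immune markers summed to 1.66 to 3.65 TPM in the controls and 1.01 to 1.97 TPM after Z325, with the pan-leukocyte marker *PTPRC* at or below 0.05 TPM, and the 5 endothelial markers reached at most 0.22 TPM. No gene of these marker lists was called in either line by edgeR. The epithelial, neuroendocrine and fibroblast sums were lower after Z325 together with the gel-forming mucins, and their part in those differences was not tested. *GCG* carried most of the neuroendocrine sum, and of the 7 neuroendocrine markers tested 4 had both treated libraries above both controls and 2 below, with a median log2 fold change of 0.46. Within the fibroblast sum, *LUM* was lower (188 and 157 against 131 and 84.0 TPM) and *COL3A1* higher (72.2 and 78.2 against 91.9 and 108 TPM), a pair named after their values were seen.

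The genes that make, modify and accompany mucins were examined as 5 lists of 107 genes. In NCI-H716, edgeR tested 68 of them and called 0, beside 0.502% of all genes tested. At an unadjusted p under 0.05 in edgeR there were 9, 4 higher and 5 lower, beside 16.9% of all genes tested. DESeq2 gave a p-value for 31956 genes and called 310 of them, among which was 1 listed gene. The median log2 fold change of the 68 was -0.076, beside -0.0063 over all genes tested. Of the 107, only 45 were among the HCT116 genes used, which end on chromosome 9, and 22 were tested in HCT116. There edgeR called 1 lower and 0 higher, beside 5.78% of all genes tested in either direction. An unadjusted p under 0.05 in edgeR was found for 6, beside 23.9% of all genes tested. DESeq2 gave a p-value for 14822 HCT116 genes and called 733 of them, among which were 2 listed genes lower and 2 higher. The median log2 fold change of the 22 was -0.092, beside -0.027 over all genes tested.

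Among the goblet cell products on the list, *AGR2* and *TFF3* had the highest levels in NCI-H716. *AGR2*, the disulfide isomerase that assists mucin folding, had 4548 and 4726 TPM in the controls and 5009 and 5323 TPM after Z325. *TFF3*, the trefoil peptide that goblet cells secrete with *MUC2*, had 5362 and 5154 TPM and then 4769 and 4924 TPM. Neither was called, at log2 fold changes of 0.18 (SE 0.15, edgeR adjusted p = 0.589) and -0.24 (SE 0.16, edgeR adjusted p = 0.460). Of 22 goblet products tested in NCI-H716, 3 had both treated libraries above both controls and 7 below, beside 24.3% and 25.1% of all genes tested, with a median log2 fold change of -0.19. Of the 22, 5 had an unadjusted p under 0.05 in edgeR, beside 16.9% of all genes tested. Named after their values were seen, they were *AGR3*, *CLCA1*, *PDIA3* and *TGM3*, all with negative fold changes, and *ERN1* with a positive one. The smallest edgeR adjusted p among them was 0.159. *PDIA3*, a disulfide isomerase that works with calnexin on glycoproteins, gave 181, 130, 115 and 86.5 TPM. In HCT116, 9 of the 27 goblet products were among the genes used, so the others, *TFF3* among them, were not analysed there. Of 3 tested, edgeR called 0 and 0 reached an unadjusted p under 0.05, beside 23.9% of all genes tested. DESeq2, which tested 7, called 0. The highest of the 9 were the granule fusion protein *VAMP8*, with 1123 to 1289 TPM, and *MARCKS*, with 30.0 to 52.5 TPM. Only 3 of the 9 had a mean of 1 TPM or more, and 2, *AGR3* and *RETNLB*, were at 0 in all 4 libraries. *AGR2* had 2, 0, 2 and 0 counts and *REG4* had 6, 2, 18 and 2.

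Of the 20 transcription factors of the goblet lineage and of mucin genes, 17 were tested in NCI-H716, and edgeR and DESeq2 called 0. At an unadjusted p under 0.05 in edgeR there was 1, *KLF4*, which supports goblet cell maturation, beside 16.9% of all genes tested. The highest were *SPDEF*, which drives goblet cell differentiation and mucin production, at 34.7 and 36.3 TPM in the controls and 30.0 and 24.9 TPM after Z325 (log2 fold change -0.34, SE 0.18, edgeR adjusted p = 0.351), and *NFKB1*, at 25.3 to 29.9 TPM. *KLF4* gave 11.6, 16.8, 19.3 and 22.4 TPM. In HCT116, 7 of the 20 were among the genes used and 3 were tested. There edgeR called 1 lower, beside 2.94% of all genes tested. *HES1*, the Notch target that represses the secretory fate, had 69.5 and 59.5 TPM in the controls and 25.3 and 21.6 TPM after Z325, a log2 fold change of -1.35 (SE 0.25, edgeR adjusted p = 0.0221). That call was lost without control replicate 1 (log2 fold change -1.28, adjusted p = 0.190) and without control replicate 2 (-1.44, adjusted p = 0.179), and with limma on the log2 FPKM and TPM scales. In NCI-H716 *HES1* had a log2 fold change of -0.027 (SE 0.28, edgeR adjusted p = 0.972), and the difference between the lines was not tested.

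The 20 polypeptide GalNAc transferases of the list attach the first sugar of a mucin O-glycan. In NCI-H716, 12 were tested, and neither edgeR (0 calls, 0 at an unadjusted p under 0.05) nor DESeq2 (0 calls) called one. Their median log2 fold change was -0.014. *GALNT1* at 20.6 to 25.8 TPM and *GALNT7* at 13.9 to 14.6 TPM were the highest. In HCT116, 12 of the 20 were among the genes used, and *GALNT1* was not. Of these, 7 were tested and 0 were called by edgeR, with 3 at an unadjusted p under 0.05 (23.9% of all genes tested). DESeq2, which tested 12, called 2, *GALNT5* lower and *GALNT3* higher. *GALNT5* had 14.5 and 7.85 TPM in the controls and 4.04 and 4.50 TPM after Z325 (log2 fold change -1.30, SE 0.32, edgeR adjusted p = 0.0516), and *GALNT3* had 6.60, 7.65, 11.1 and 19.8 TPM (1.17, SE 0.34, edgeR adjusted p = 0.0820). *GALNT7* and *GALNT14*, the highest of the 12 in HCT116, overlapped between the groups.

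Of the 26 enzymes and transporters that extend, sialylate, fucosylate or sulfate these glycans, 14 were tested in NCI-H716 and edgeR called 0. At an unadjusted p under 0.05 in edgeR there were 2, *GCNT3* and *B4GALT4*, beside 16.9% of all genes tested. *GCNT3*, the mucin-type core 2 and core 4 branching enzyme, had 3.34 and 5.78 TPM in the controls and 8.32 and 9.56 TPM after Z325. Its log2 fold change was 1.17 (SE 0.24, edgeR adjusted p = 0.0760), and DESeq2 called it at an adjusted p of 0.0122. *C1GALT1C1*, the chaperone of the core 1 synthase, and *SLC35A1*, the CMP-sialic acid transporter, were the highest of the list at 17.1 to 26.1 and 22.6 to 32.4 TPM, and both overlapped between the groups. In HCT116, 9 of the 26 were among the genes used, 7 were tested and edgeR called 0. At an unadjusted p under 0.05 in edgeR there were 2, *ST3GAL1* and *SLC35A1*, beside 23.9% of all genes tested. DESeq2, which tested 8, called 1, *SLC35A1*. *SLC35A1* had 149 and 149 TPM in the controls and 275 and 198 TPM after Z325 (log2 fold change 0.77, SE 0.20, edgeR adjusted p = 0.0631), and the core 1 synthase *C1GALT1* had 49.9 to 58.4 TPM.

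Of the 14 other mucin and mucin-like genes, 13 were among the NCI-H716 genes and 8 among the HCT116 genes used. The sialomucin *CD164* was the highest of these in both lines, at 69.5 to 79.99 TPM in NCI-H716 and 609 to 648 TPM in HCT116. The mucin-like membrane protein *PARM1* followed, at 1.02 to 1.69 TPM in NCI-H716 and 6.55 to 11.2 TPM in HCT116. Both treated libraries were below both controls in each line, as for 25.1% of all genes tested in NCI-H716 and 29% in HCT116. In HCT116 its log2 fold change was -0.39 (SE 0.32, edgeR adjusted p = 0.523). Of 3 tested in NCI-H716 and 2 tested in HCT116, edgeR called 0, and DESeq2, which tested 11 and 5, called 0. *PARM1* in NCI-H716 was the only one at an unadjusted p under 0.05 in edgeR, beside 16.9% of all genes tested (log2 fold change -0.63, SE 0.27, edgeR adjusted p = 0.280).

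**Figure D4:**
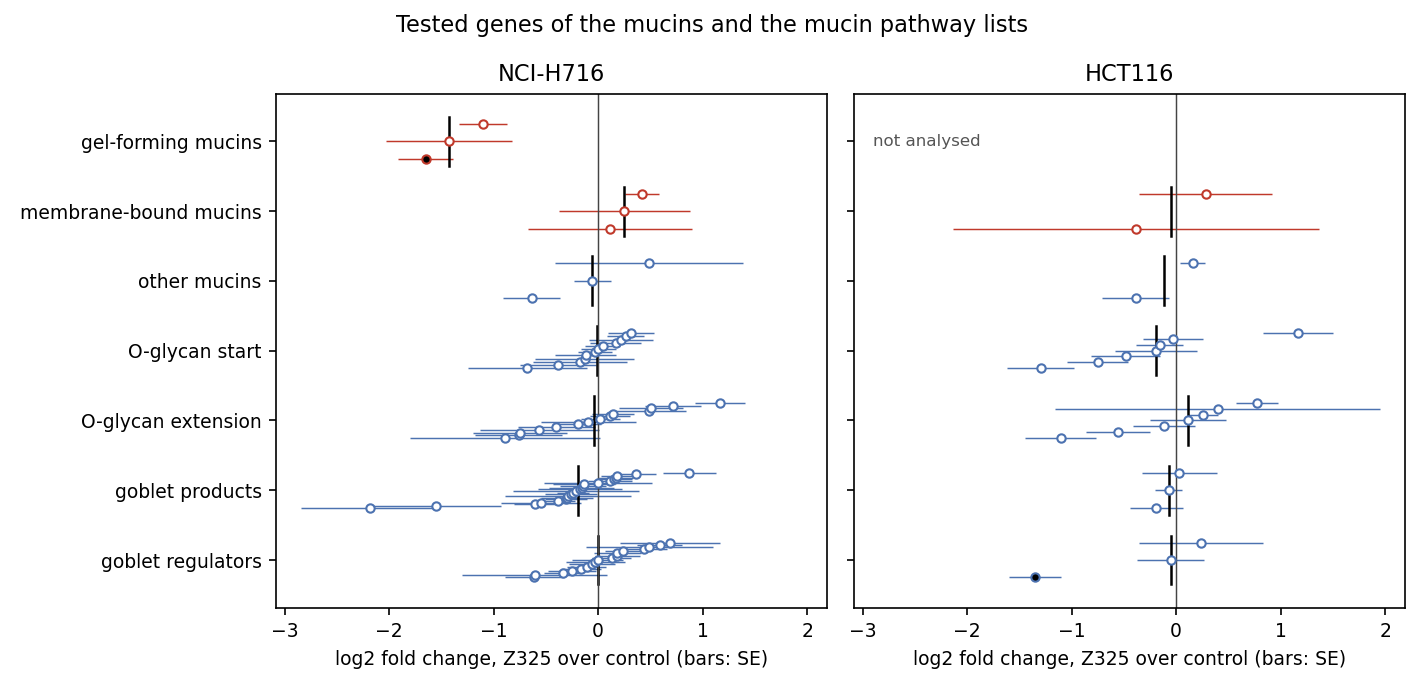
Log2 fold change (Z325 over control) with SE bars for every tested gene of the mucins (red) and of the 5 lists (blue) in NCI-H716 and HCT116, with filled points for genes called at an adjusted p under 0.05 and a vertical black line at the median of each list. In NCI-H716 the 3 gel-forming mucins lie between -1.65 and -1.11 while the medians of the other lists lie between -0.19 and 0.25, and in HCT116 HES1 at -1.35 is the filled point.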

How the data were processed

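RNA of 8 libraries was amplified with a SMART-Seq2 kit and sequenced by the authors. Their methods describe TrimGalore, STAR, GRCh38 and RSEM, whereas the submitters' processing notes list Bowtie2 2.5.0, featureCounts and hg38. For NCI-H716 the authors deposited RSEM expected counts, TPM and FPKM per gene and library. For HCT116 the authors deposited raw counts in 1 table with gene lengths. The table used here ends on chromosome 9, 4 of its 28047 lines were broken and left out, and HCT116 TPM and FPKM were computed from its counts, so they are relative to the listed genes only. GENCODE v44 gave a symbol for 62666 of the NCI-H716 gene identifiers.

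Expected counts were rounded, and each line was fitted alone in edgeR 4.0.16 (R 4.3.3) with TMM, filterByExpr and the quasi-likelihood test, with Benjamini-Hochberg adjustment over all genes tested and a threshold of 0.05. With 2 libraries a group, an exact permutation test cannot go below p = 0.333, so none was used. Alternatives used DESeq2 1.42.0, limma 3.58.1, other filters and scalings, a replicate block, thinning to the shallowest library and leaving out each library. Per list and line, up to 4 called genes with the smallest adjusted p and the 2 with the highest control TPM were named, together with 3 genes most like the most abundant mucin and genes sharing exon bases with a mucin. The members and lists were chosen with earlier results of these data known, so they support nothing by their direction. In simulated data, 200 genes were changed 4-fold and all genes were given the same relative spread, the common one of their line. The fit called 85% of the changed genes with 4 false calls in HCT116 (6491 genes) and 93.5% with 7 in NCI-H716 (14142 genes). Real genes differ in spread and the fitted mucin changes in NCI-H716 were below 4-fold, so these rates need not hold for them. Figures were drawn with Python 3.11.15 and matplotlib 3.10.9.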

Additional observations from a re-analysis of the deposited data

Results flagged for a closer look

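Of 23 mucins, pathway genes and markers tested in both lines, 4 had both Z325 libraries on one side of both controls in HCT116 and on the opposite side in NCI-H716, as did 9.56% of the 4988 genes tested in both lines. The difference between the lines was not tested for any of them, and none was called in either line by edgeR. *GALNT5* had log2 fold changes of -1.30 in HCT116 and 0.26 in NCI-H716. *GALNT11*, another GalNAc transferase, had -0.75 in HCT116 and 0.31 in NCI-H716. *SLC26A2*, a sulfate transporter, had -0.56 in HCT116 and 0.50 in NCI-H716. The secretogranin gene *SCG2* had -0.42 in HCT116 and 0.53 in NCI-H716. Among the mucins only *MUC1* was tested in both lines, and its groups overlapped in each, so the other mucins could not meet this condition.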

How the results depend on the processing

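Counts of called genes depended strongly on the processing, whereas the direction of 4 mucins in NCI-H716 did not. *MUC2*, *MUC5AC*, *MUC5B* and *MUC13* kept their direction in all 13 alternatives. In CPM each had both Z325 libraries on one side of both controls, so leaving out a library could hardly turn its direction. The alternatives also share the contrast known when the genes were chosen, so the kept direction is a description. *MUC2* lay between -1.69 and -1.50 on the log2 scale, and between -2.10 and -1.27 when a library was left out. *MUC5B* ran from -1.53 to -0.12 with every library kept, and from -2.42 to -0.77 when a library was left out. No HCT116 mucin was called under the alternatives that tested one. With at least 10 counts in every library and with thinning, none was tested.

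In HCT116 the 375 calls became 733 with DESeq2, 615 with at least 10 counts in every library, 683 with no filter, 4 with limma on log2(FPKM + 0.1), 1 with limma on log2(TPM + 1) and 0 with limma on log2(FPKM + 1), where 1408 genes had an unadjusted p under 0.05, and they ran from 23 to 1076 when a library was left out (23 without control replicate 2). In NCI-H716 the 71 calls became 310 with DESeq2, 777 with no filter, 7, 1 and 6 with limma on log2(FPKM + 1), log2(FPKM + 0.1) and log2(TPM + 1), and ran from 38 (without control replicate 1) to 1386 (without Z325 replicate 1). With a mean of 1 TPM in place of the count filter, 0 HCT116 mucins counted as expressed instead of 2. *MUC1* in HCT116 turned to 0.029 with DESeq2 and 0.012 with limma on log2(FPKM + 1), and ran from -0.98 to 1.12 when a library was left out. In NCI-H716 *MUC1* turned to -0.0068 with limma on log2(TPM + 1) and ran from -0.30 to 0.63 when a library was left out. *MUC12* turned to -0.79, -2.05 and -0.68 with the same 3 limma fits and ran from -1.59 to 0.95 when a library was left out. Merged exon lengths, an alternative chosen after seeing the data, moved the mean gel-forming share in the controls from 34.5% to 27.5%.

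The replicate numbers are shared between groups, but 2 pairs do not establish a pairing, and same-numbered libraries deviated together with correlations of -0.031 in HCT116 and 0.20 in NCI-H716. With the replicate block, 381 genes were called in HCT116 and 2397 in NCI-H716. Of the 68 listed pathway genes tested in NCI-H716, the block called 8 against 0 without it (*AGR3*, *B4GALT4*, *ERN1*, *FOXA1*, *GCNT3*, *KLF4*, *PDIA3* and *TGM3*), and *MUC12* turned to -0.16. The cause of these shifts was not tested. Low counts limit what could be detected for the HCT116 mucins, none of which had more than 32 counts in a library.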

Other observations

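Of the 7 neuroendocrine markers tested in NCI-H716, edgeR and DESeq2 called 0, and 6 had an unadjusted p under 0.05 in edgeR, beside 16.9% of all genes tested. *CHGB*, *SCG2*, *SCG3* and *INSM1* had both treated libraries above both controls in CPM, with log2 fold changes of 0.46, 0.53, 0.46 and 0.68, beside 24.3% of all genes tested. *GCG* and *SYP* had both below, at -0.39 and -0.71, beside 25.1%. *CHGA* overlapped between the groups, at 0.084. Proglucagon transcripts (*GCG*) stood at 2366 and 1896 TPM in the controls and at 1652 and 1437 TPM after Z325. *SCG2*, *SCG3*, *INSM1*, *SYP* and *CHGA* are named after their values were seen.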
